A study of Mus musculus with 12 samples.

Results

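The 78 genes described here are the Mrpl and Mrps genes, named for the proteins of the mitochondrial ribosome. They are all autosomal protein-coding genes of GENCODE mouse release M21 whose symbol is Mrpl or Mrps followed by a number, out of 20807 autosomal protein-coding genes. Of the 78, 49 carry an Mrpl and 29 an Mrps symbol. By the place of the protein, 51 were counted with the large and 27 with the small subunit, since Mrps30 and Mrps18a, in spite of their symbols, encode proteins of the large subunit. Processed pseudogenes of these genes were not counted as members.

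The data are chromatin immunoprecipitation with sequencing (ChIP-seq) for MOF (KAT8), a lysine acetyltransferase of histone H4, in visceral white adipose tissue of mice aged 8 weeks on a standard diet, labelled C57BL/6 and, per the methods, backcrossed to C57BL/6J. The groups were mice with both copies of Mof (Mof+/+, wild type) and mice with one copy (Mof+/-), and the labels give 12 libraries in 6 groups of 2, for MOF, histone H3 and input in each genotype. The processed data used were 2 peak lists, 1 per genotype, so a difference between genotypes has no replicate values to be measured against, and none was tested. The methods describe a merging of peaks within 1000 bp, but 3796 pairs of neighbours in the Mof+/+ and 148 in the Mof+/- list lay that close, so the lists were read as not merged. How the replicate libraries of a genotype entered its list is not stated.

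The mitochondrial ribosome translates the few messages of the mitochondrial genome, all of which code for subunits of the respiratory chain and ATP synthase. Its RNAs are encoded in the mitochondrion, while its proteins come from nuclear genes spread over the chromosomes, are made in the cytosol and are imported. Many of these proteins descend from bacterial ribosomal proteins and others were gained in the mitochondrial lineage. In white adipocytes, mitochondria supply energy and precursors for lipid synthesis.

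In Mof+/+ tissue, 63 of the 78 genes (80.8%, 95% Wilson interval 70.7 to 88.0%) had a MOF peak within 1 kb of an annotated start, against 42.7% of all autosomal protein-coding genes. Held to a q-value of 0.001 or less, the count was 37 (47.4%, against 32.7%). With only genes whose peak of smallest p-value no other gene shared, it was 25 (32.1%, against 25.4%). In the Mof+/- list 0 of 78 genes had a peak within 1 kb of a start, against 1.37% of all genes. This allows a share of up to 3.85% (3 counts of 78, the upper Wilson bound being 4.69%). The Mof+/+ peaks were mostly weak and narrow for promoter peaks. Their median fold enrichment was 3.49 and their median width 611 bp, against 3.98 and 843 bp at all genes with a promoter peak. Of the 78 genes, 28 (35.9%) had a divergent partner, that is, a gene on the opposite strand starting at most 1000 bp upstream, against 14.5% of all genes, and 27 of these 28 had a peak. Here and below, intervals cover counting error only, with each gene taken as 1 item.

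The promoters of 5 members show the situations met among the 78 genes. Each is read 5′ to 3′ on the strand of the gene, from 250 bases before to 50 bases after the RefSeq start (GRCm38.p6), and capitals mark matches to motifs named further on. The Mrps11 window spans the primary starts of both Mrps11 and Mrpl46, and its bases before the Mrpl46 start lie within the Mrpl46 gene.
Mrps11, chr7:78782881-78783180, plus strand, between Mrps11 and its divergent partner Mrpl46, the only pair of members that faces itself: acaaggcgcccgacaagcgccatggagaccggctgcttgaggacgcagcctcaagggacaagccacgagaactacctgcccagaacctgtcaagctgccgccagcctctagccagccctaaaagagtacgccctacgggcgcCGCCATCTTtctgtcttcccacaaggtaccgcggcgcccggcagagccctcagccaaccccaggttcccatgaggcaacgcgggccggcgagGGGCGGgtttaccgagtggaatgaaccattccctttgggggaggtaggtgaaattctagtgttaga
Mrps18b, chr17:35916391-35916690, minus strand, next to the strongest peak of the group: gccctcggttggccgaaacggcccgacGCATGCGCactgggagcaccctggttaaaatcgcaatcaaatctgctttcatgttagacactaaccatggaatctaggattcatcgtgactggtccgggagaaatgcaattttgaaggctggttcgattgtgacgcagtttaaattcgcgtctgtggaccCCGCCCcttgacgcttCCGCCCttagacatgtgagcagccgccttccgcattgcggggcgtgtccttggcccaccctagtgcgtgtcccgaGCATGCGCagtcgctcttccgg
Mrps23, chr11:88204138-88204437, plus strand, under the strongest peak that no other gene shared: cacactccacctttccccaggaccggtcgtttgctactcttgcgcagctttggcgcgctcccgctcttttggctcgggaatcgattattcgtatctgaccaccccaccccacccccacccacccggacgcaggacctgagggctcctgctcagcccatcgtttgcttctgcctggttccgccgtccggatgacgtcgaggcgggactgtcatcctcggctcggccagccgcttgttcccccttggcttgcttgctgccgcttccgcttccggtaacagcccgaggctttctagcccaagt
Mrps12, chr7:28741772-28742071, minus strand, the divergent promoter without a peak: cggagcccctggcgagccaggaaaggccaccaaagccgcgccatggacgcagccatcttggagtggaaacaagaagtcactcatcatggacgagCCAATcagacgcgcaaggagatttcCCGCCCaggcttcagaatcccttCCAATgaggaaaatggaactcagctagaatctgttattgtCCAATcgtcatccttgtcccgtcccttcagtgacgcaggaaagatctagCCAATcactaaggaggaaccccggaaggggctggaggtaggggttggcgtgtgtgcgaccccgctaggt
Mrps17, chr5:129715247-129715546, plus strand, a promoter with no peak and no partner: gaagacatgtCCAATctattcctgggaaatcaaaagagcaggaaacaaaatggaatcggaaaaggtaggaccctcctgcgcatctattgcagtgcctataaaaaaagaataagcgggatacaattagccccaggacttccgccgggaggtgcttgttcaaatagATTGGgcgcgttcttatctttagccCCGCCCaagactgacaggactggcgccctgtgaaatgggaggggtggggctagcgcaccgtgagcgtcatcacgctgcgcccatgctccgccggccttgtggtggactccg

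The lists differed in size and depth. There were 19773 peaks for Mof+/+ and 731 for Mof+/-. Fold enrichment is the ratio that MACS2 gives of the fragments over a summit to the local background, each plus 1, and fragments and background could be recovered from it and the p-value for 99.98% and 99.45% of the peaks. The lowest background stood at 3.52 fragments for Mof+/+ and 2.26 for Mof+/-, and the median summit held 16 and 14 fragments. In whole tissue, fewer cells carrying MOF at a site and less MOF per cell cannot be told apart. Beside 42.7% of all genes, promoter peaks were present in the Mof+/+ list at 6 of 10 adipocyte genes, among them Adipoq and Plin1, and were absent from Fabp4, Lep, Pparg and Cidec. They were also present at 7 of 8 B cell, 5 of 8 T cell and 1 of 8 macrophage genes, and the Wilson intervals of the adipocyte, T cell and macrophage shares held the background. In the Mof+/- list 2 of 8 B cell genes, Cd74 and Pax5, and 0 of the adipocyte, T cell and macrophage genes had a promoter peak. The part of other cell types in the values below was not tested.

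Genes for proteins of both subunits had MOF promoter peaks. A promoter peak was present at 43 of 51 large-subunit genes (84.3%) and at 20 of 27 small-subunit genes (74.1%). Genes for proteins with a bacterial counterpart had one in 36 of 46 cases (78.3%), and genes for proteins counted as particular to mitochondria in 27 of 32 (84.4%). The latter include Mrps18a and Mrps18b, relatives of bacterial S18, and with both moved to the former, a regrouping made after seeing the data, the counts were 37 of 48 and 26 of 30. Split by both features, the counts were 25 of 30 for conserved and 18 of 21 for mitochondrial proteins of the large subunit, and 11 of 16 and 9 of 11 for those of the small subunit. The Wilson intervals of these 4 groups overlapped, the lowest share (68.8%, upper bound 85.8%) reaching past the highest (85.7%, lower bound 65.4%). Median fold enrichment was 3.58 for the large and 3.49 for the small subunit. It was 3.37 for conserved and 3.58 for mitochondrial proteins, with upper quartiles of 3.80 and 4.76. Widths had medians of 589.5 and 645 bp and upper quartiles of 765 and 1350 bp. These differences were not tested.

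The 12 members with the smallest p-value spanned both subunits. The strongest peak was at Mrps18b, which encodes 1 of 3 related mammalian versions of ribosomal protein S18. It lay at chr17:35916981-35920330, was 3350 bp wide, and held 33 fragments at its summit, with a fold enrichment of 7.26 and a −log10 p-value of 20.8. It began 592 bp upstream of the nearest Mrps18b start and also lay within 1 kb of starts of Ppp1r10 and Mir1894. A second, weaker peak of fold 3.27 lay over a start of Mrps18b itself, so the strongest value cannot be given to Mrps18b alone.

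Mrps23, a small-subunit protein without a bacterial counterpart, came next. Its peak at chr11:88203758-88205228 was 1471 bp wide, covered the whole promoter printed above, and reached a fold enrichment of 6.19 with 27 fragments. No other gene started within 1 kb of it. Mrpl4, a conserved protein near the exit tunnel, had a peak of fold 5.55 with 26 fragments and a summit 165 bp downstream of its primary start, also unshared. These were the clearest cases of a strong peak over a promoter that serves a single annotated gene.

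Among the other 9 of the strongest 12, Mrpl51 had a fold enrichment of 5.40 with 24 fragments. Mrpl53 and Mrpl48 both had 5.31 with 23 fragments. The Mrpl48 peak, however, lay at an alternative start, its summit at −24772 bp from the primary start, where Rab6a, a Golgi GTPase gene, also starts, and the peak at the primary start had a fold of 3.32 with 14 fragments. Mrps7, a conserved protein of the small-subunit head, had 5.21 in a peak 1933 bp wide. Mrpl41 had 5.09 in a peak 2101 bp wide. Mrpl52, Mrpl13 and Mrpl14 each had 4.87 with 21 fragments, and Mrps21 had 4.44 with 23 fragments. Across the 12, the proteins counted as mitochondrial, Mrps18b, Mrps23, Mrpl51, Mrpl53, Mrpl48, Mrpl41 and Mrpl52, stood beside the conserved Mrpl4, Mrps7, Mrpl13, Mrpl14 and Mrps21.

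Of the 63 members with a peak, 22 (34.9%) lay above the median −log10 p-value of the 8894 genes with a promoter peak, against 49.8% of all. Mrps18b lay at the 98.4th and Mrps23 at the 94.2nd percentile of −log10 p, and Mrpl4 at the 89.3rd. In all, 8 of the 63 members (12.7%) lay above the upper quartile, as did 23.5% of all genes with a peak. At or below the lower quartile lay 27 members (42.9%), against 28.6% of all. The peak of smallest p had a q-value at or below 0.01 in 51 of 63 members, against 91.1% of all genes with a peak. At the low end, Mrps30, a large-subunit protein first described as a cell death factor, had 11 fragments over its summit and a fold enrichment of 2.65. Mrpl28 and Mrpl35 both had a fold of 2.56, and Mrpl27 and Mrpl43 both had 2.48. Mrpl47 had the lowest fold of all members, 2.44, in a peak 412 bp from its nearest start, which it shared with Ndufb5, the gene of a complex I subunit.

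**Figure D1:**
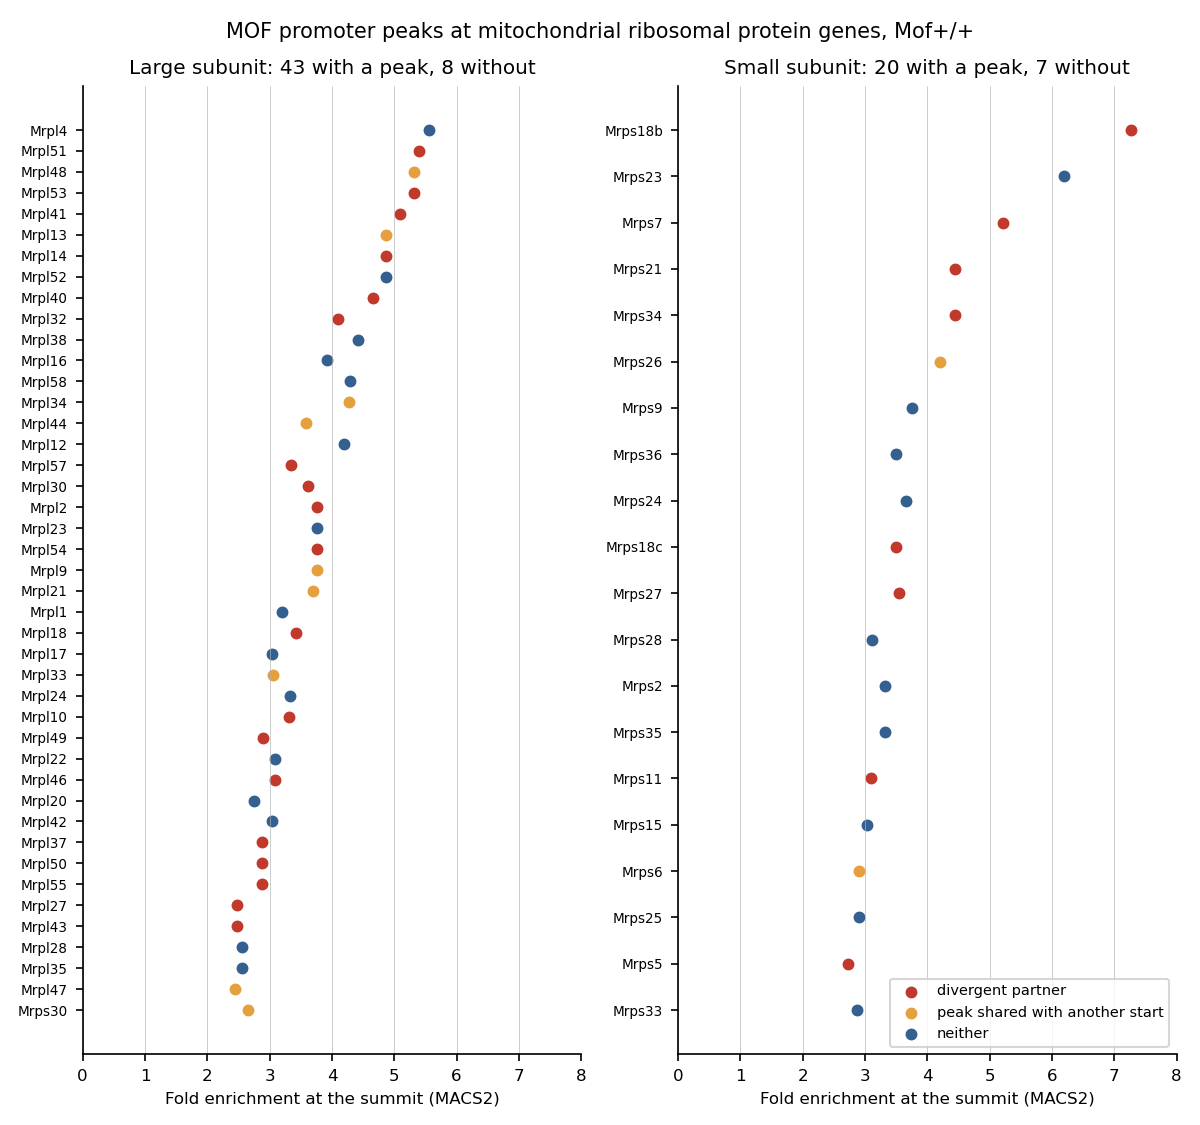
Fold enrichment at the summit of the strongest Mof+/+ promoter peak (x axis, ratio given by MACS2) for each of the 63 members with a peak, ordered from top to bottom by p-value within the large (left, 43 genes) and small (right, 20 genes) subunit. Red points have a divergent partner, orange points share the peak with another gene's start, and blue points do neither; most points lie between 2.44 and 5.55, with Mrps23 at 6.19 and Mrps18b at 7.26 to the right of all others.

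Several members with functions beyond holding the ribosome together are given here, picked after their values were seen. Over all members with a peak, fold enrichment had a median of 3.49 and an upper quartile of 4.28. Mrpl12, of the stalk that engages translation factors, had a fold enrichment of 4.20 with 18 fragments. Mrpl58, a peptidyl-tRNA hydrolase that frees stalled mitochondrial ribosomes, had 4.29 with 19 fragments. Mrpl44, which is related to ribonuclease III, had 3.58 with 25 fragments over a background of 6.26. Mrps36, now assigned to the alpha-ketoglutarate dehydrogenase complex rather than to the ribosome, had 3.49 with 18 fragments, and was counted by its symbol. Of the S18 genes, Mrps18b and Mrps18c had peaks, of fold 7.26 and 3.49, and Mrps18a had none, its nearest peak lying 27744 bp away.

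Divergent promoters were frequent among these genes. A divergent partner was found for 28 of the 78 members, and for 25 (32.1%) the partner was itself protein-coding, against 9.36% of all genes. Of the cytosolic ribosomal protein genes, which encode the ribosome of the cytoplasm, 17 of 73 (23.3%) had a partner. The distance between the 2 starts had a median of 70.5 bp, ran from 3 bp (Mrps21) to 935 bp (Mrpl41 and Pnpla7), and was under 100 bp in 18 of the 28 cases.

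The partners did varied work. Mrpl46 and Mrps11, of the large and the small subunit, faced each other across 30 bp and shared both of their promoter peaks. The stronger, at chr7:78782634-78783068, had a fold enrichment of 3.09, 15 fragments and a width of 435 bp, and ended inside the Mrps11 promoter printed above. The weaker, at chr7:78783462-78783839, had a fold of 2.71 and 13 fragments. Mitochondrial functions among the partners were the DNA helicase Twnk (opposite Mrpl43, 116 bp), the RNA-binding protein Ptcd2 (opposite Mrps27, 81 bp) and the seryl-tRNA synthetase Sars2 (opposite Mrps12, 172 bp). Fau, which encodes a cytosolic ribosomal protein fused to a ubiquitin-like protein, lay opposite Mrpl49 at 59 bp. Partners of other kinds were the histone chaperone Hira (Mrpl40), the chaperonin subunit Tcp1 (Mrpl18), the proteasome subunit Psma2 (Mrpl32), the condensin subunit Ncapd2 (Mrpl51), the kinetochore protein Ska3 (Mrpl57), the phosphatase regulator Ppp1r10 (Mrps18b), the kinesin light chain Klc4 (Mrpl2), the helicase Helq (Mrps18c) and the endonuclease subunits Eme1 (Mrpl27) and Eme2 (Mrps34). The remaining coding partners were Mitd1 (Mrpl30), Gga3 (Mrps7), Tmem63b (Mrpl14), Pnpla7 (Mrpl41), Lrrc46 (Mrpl10), Cyb5rl (Mrpl37), Apba3 (Mrpl54), Zfp189 (Mrpl50) and Zfp661 (Mrps5). In 3 cases the partner was a noncoding transcript, at Mrpl53, Mrps21 and Mrpl55.

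Of the members with a partner, 27 of 28 (96.4%) had a peak, against 73.8% of all genes with a partner. Mrps12, the decoding-centre protein of the small subunit, was the exception. Of the members without a partner, 36 of 50 (72.0%) had a peak, against 37.5% of all such genes. The peaks at divergent members had a median fold of 3.54 and a median width of 611 bp, and those at the other members 3.41 and 614 bp, a difference that was not tested. At divergent members the summit lay on the partner's side of the primary start in 14 of 27 cases, and the median summit lay at −47 bp. A peak between 2 starts cannot be given to either gene. In 11 more members, without a divergent partner by this rule, the peak also lay within 1 kb of another gene's start, so that 38 of the 63 (60.3%) shared their peak, against 40.5% of all genes with a peak, and 25 did not.

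Members with a peak had more CpG around their starts than those without. The kilobase centred on the primary start held a median of 58 CpG in members with a peak and 45 in those without. Over all genes the medians were 68 and 18, a wider gap. When all genes were split into 4 quartiles of CpG count, 0 members fell in the lowest. In the second quartile, 11 of 17 members had a peak (64.7%, against 28.2% of all genes in it), in the third 34 of 43 (79.1%, against 62.2%) and in the highest 18 of 18 (against 73.7%). The members of the second quartile had 31 to 45 CpG, the upper end of its span, and 40.5% of all genes in that narrower range had a peak. The members' share was thus above that of all genes in each quartile that held members, by the counts alone. RGCY sites, which the enzyme used to cut the chromatin recognises, numbered 24 at the median in members with a peak and 22 in those without. Over all genes these medians were 27 and 22. The part of RGCY sites in the peak counts was not tested.

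**Figure D2:**
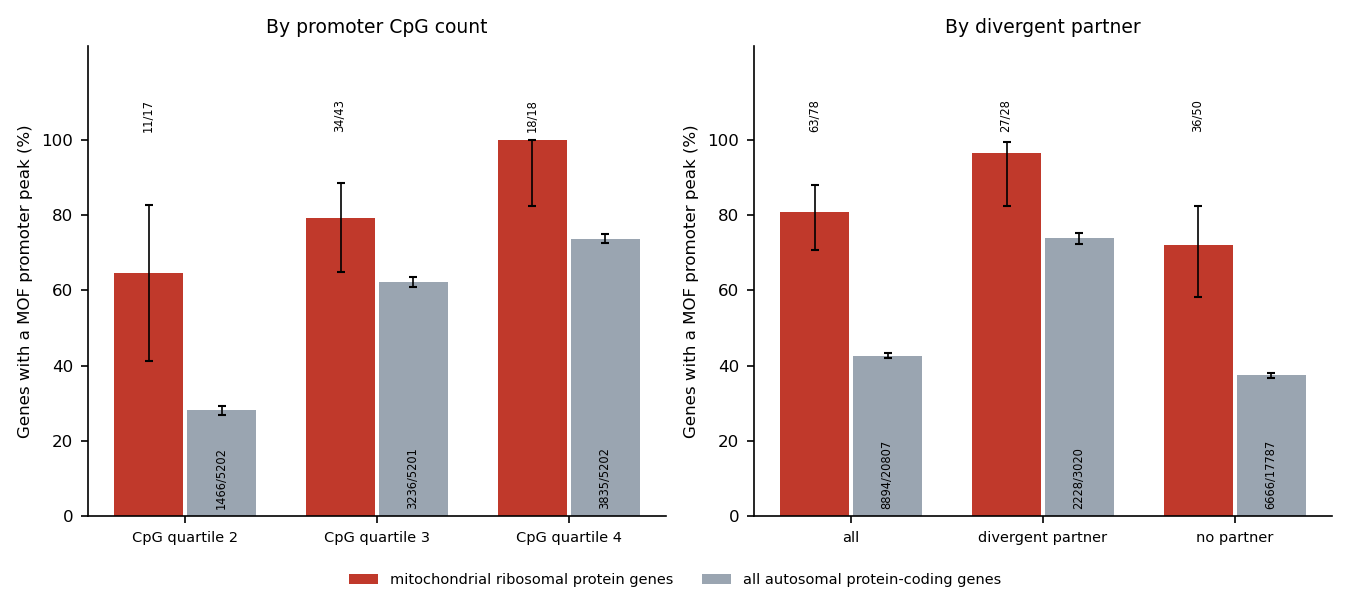
Share of genes with a MOF promoter peak in the Mof+/+ list (y axis, percent) for the 78 members (red) and all autosomal protein-coding genes (grey), by quartile of CpG count (left) and by divergent partner (right). Bars start at 0, error bars are 95% Wilson intervals, numbers give genes with a peak over genes counted, and the red bar exceeds the grey one in each pair, reaching 18 of 18 in CpG quartile 4 and 27 of 28 with a divergent partner.

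The summits lay close to the start. Of the 63 members, 36 (57.1%) had their summit within 250 bp of the primary start, against 41.9% of all genes with a peak, and 54 (85.7%) within 500 bp, against 70.6%. The median offset was 18 bp downstream (quartiles −197 and 219 bp, positive in the direction of transcription), against 145 bp downstream over all genes. Measured from the nearest start of any transcript, the members' median was −12 bp, so its side of the start was not settled. The summit lay upstream in 29 members (46.0%, against 34.3%). Beside them, the cytosolic ribosomal protein genes had their median summit 249 bp downstream. A peak covered an annotated start outright in 47 of 78 members (60.3%), against 33.3% of all genes, and widening the window to 3 kb added 0 members, at 63 of 78 against 44.6% of all genes. Just inside the 1 kb limit lay the strongest peaks of Mrps18b at 592 bp, Mrpl34 at 450 bp and Mrpl47 at 412 bp, and just outside it the nearest peaks of Mrps16 at 3227 bp, Mrpl45 at 5347 bp and Mrps17 at 9002 bp. The limit therefore fell in a wide gap.

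Width varied more than height. The widest peaks, after that of Mrps18b, were at Mrps34 (2108 bp), Mrpl41 (2101 bp), Mrps7 (1933 bp) and Mrpl48 (1710 bp). Each of these 5 also lay within 1 kb of another gene's start. The narrowest were at Mrps28 (273 bp), Mrpl27 (276 bp), Mrpl21 (293 bp), Mrpl42 (299 bp) and Mrps36 (303 bp). A width over 1 kb was met in 15 of 63 members (23.8%), against 40.0% of all genes with a peak. Compared with the cytosolic ribosomal protein genes, of which 71 of 73 (97.3%) had a peak with a median fold of 4.41 and a median width of 1017 bp, the mitochondrial ribosomal protein genes had fewer, lower and narrower peaks.

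**Figure D3:**
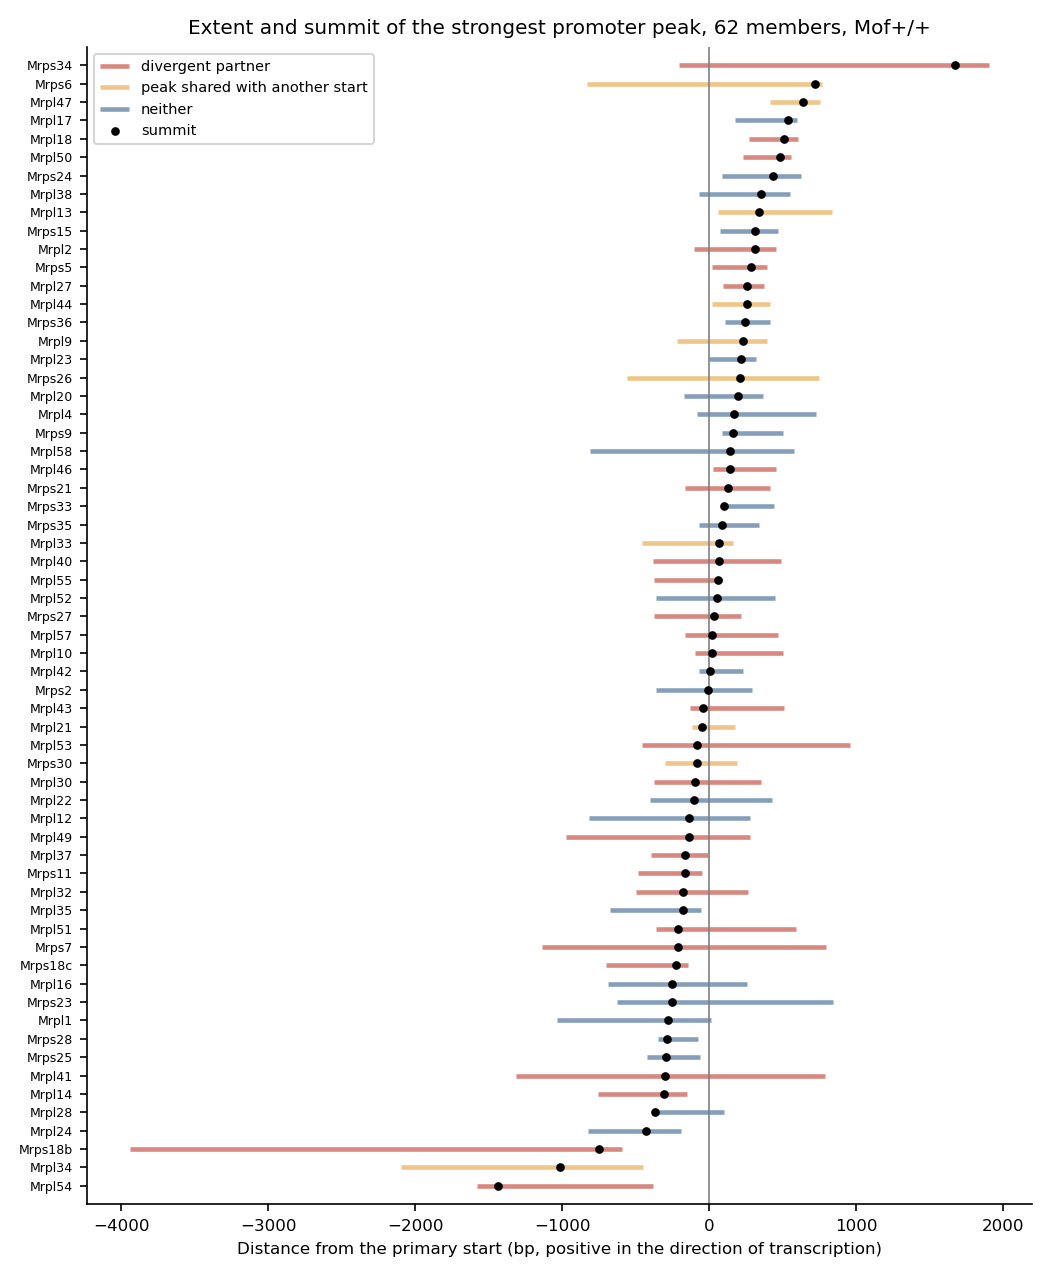
Extent (bars) and summit (black points) of the strongest Mof+/+ promoter peak of 62 members relative to the primary start (x axis, bp, positive in the direction of transcription), with Mrpl48, whose peak lies at a distant alternative start, left out. Members are ordered by summit offset and coloured as divergent (red), otherwise shared (orange) or unshared (blue); 54 summits lie within 500 bp of the start, and the widest bar belongs to Mrps18b.

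The 15 members without a promoter peak held 8 genes of the large and 7 of the small subunit. In the large subunit these were Mrpl3, Mrpl11, Mrpl15, Mrpl19 and Mrpl36, which have bacterial counterparts, and Mrpl39, Mrpl45 and Mrps18a. Mrpl11 helps to form the site where translation factors bind, and Mrpl45 holds the ribosome to the inner membrane. In the small subunit they were Mrps10, Mrps12, Mrps14, Mrps16, Mrps17, Mrps22 and Mrps31. Mrps16 came nearest to having one, with its closest peak 3227 bp away and 2.71 in fold. The next were Mrpl45 (5347 bp), Mrps17 (9002 bp), Mrps31 (12363 bp), Mrps14 (16617 bp) and Mrpl15 (22130 bp). Mrps18a (27744 bp), Mrpl39 (31522 bp), Mrpl11 (33363 bp), Mrps22 (37586 bp) and Mrps12 (38471 bp) followed, then Mrpl3 (60552 bp), Mrps10 (97942 bp), Mrpl36 (103501 bp) and Mrpl19 (807692 bp). The median was 31522 bp, so these promoters were not near misses of the window. None of the 15 was in the highest CpG quartile. Absence from the list says only that no peak passed the caller's threshold, the fewest fragments over any summit being 11.

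In the Mof+/- list the nearest peak to a member lay at a median of 819389 bp, against 1709186 bp for all genes, and 9 members (11.5%) had one within 100 kb, against 8.20% of all. The closest, at chr17:35917606-35918437, lay 1217 bp from Mrps18b, with a fold enrichment of 4.52 and 14 fragments. It fell inside the wide Mof+/+ peak described above, and its nearest start was that of Mir1894. Within 3 kb, Mrps18b was thus the 1 member of 78 with a Mof+/- peak, against 1.75% of all genes. The next nearest were 10947 bp from Mrps21, at the Ciart promoter, and 16744 bp from Mrpl12, near Slc25a10.

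A count of 0 in the Mof+/- list is near the background of that list. The Mof+/+ list is described here at 2 other cuts, neither of which makes the lists equal in depth. What the cuts mean for the Mof+/- count was not tested. If the Mof+/+ list was reduced to its 731 strongest peaks, 2 members (2.56%) had a promoter peak, Mrps18b and Mrps23, against 3.32% of all genes. With the size of the lists made equal, the members' share was thus also near the background. With peaks held to the weakest p-value seen in Mof+/-, 51 of 78 members (65.4%) had a Mof+/+ peak, against 37.4% of all genes. The lower Mof+/- background moves with the shorter list, and its part in the missing peaks was not tested.

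Other genes of mitochondrial protein synthesis were counted by lists, beside the background of 42.7%. All 5 mitoribosomal protein genes with other symbols had a Mof+/+ peak, with folds of 5.75 at Aurkaip1, 5.53 at Gadd45gip1, 4.87 at Chchd1, 4.64 at Dap3 and 3.07 at Ptcd3. Of 21 assembly genes 14 had one, among them Mtg1 (4.04), a GTPase of the large subunit, Nsun4 (4.06), a ribosomal RNA methyltransferase, and Eral1 (4.20), a chaperone of the small-subunit RNA. Of 15 translation and messenger RNA factors 11 had one, among them Tufm (4.19), the elongation factor Tu, Gfm1 (3.76), an elongation factor G, Lrpprc (4.42), which stabilises mitochondrial messages, and Mrrf (4.42), the recycling factor. The initiation factor Mtif2, the elongation factor Tsfm, the formyltransferase Mtfmt and the LepA homologue Guf1 had none. Of 6 genes for transcription of the mitochondrial genome 3 had a peak, namely Tfam (3.50), Tefm (3.41) and Tfb2m (4.61), while the polymerase Polrmt had none, which is near the background. In the Mof+/- list, 0 of these 47 genes had a promoter peak, near the background of 1.37%.

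**Figure D4:**
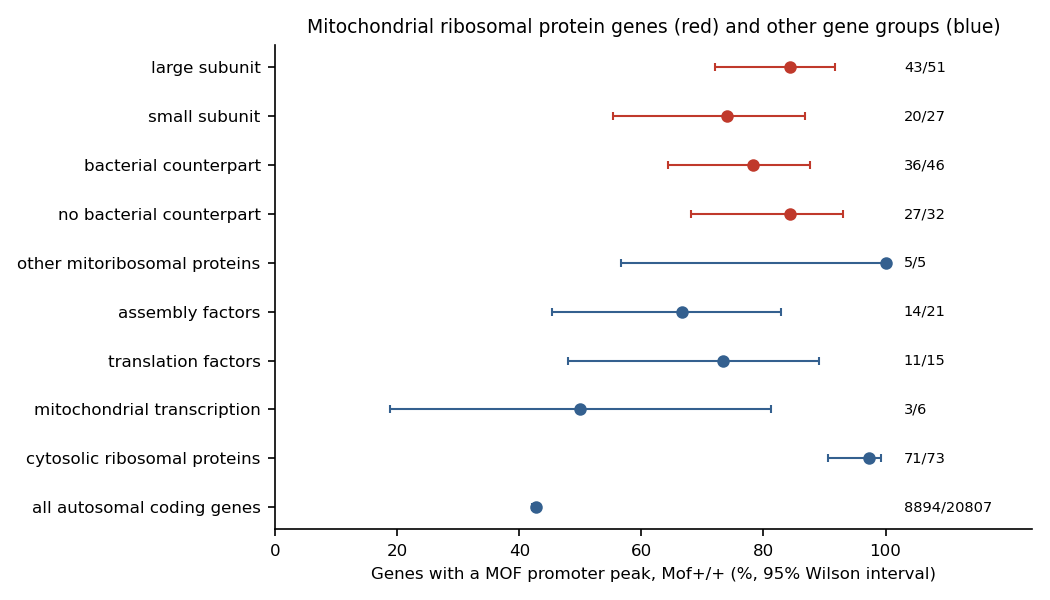
Share of genes with a MOF promoter peak in the Mof+/+ list (x axis, percent) with 95% Wilson intervals, for the 78 members split by subunit and by bacterial counterpart (red) and for other gene groups (blue), with genes with a peak over genes counted at the right. The 4 red groups lie between 74.1% and 84.4%, below the cytosolic ribosomal proteins at 97.3% and above all autosomal coding genes at 42.7%.

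Promoter sequence was searched on both strands for 7 motifs in the 300-base RefSeq promoters, which were found for 69 of the 78 members and for 15703 genes in all. The NRF1 motif (GCATGCGC) was in 8 members (11.6%) and 3.81% of all promoters, and the ETS motif (CCGGAAGT) in 12 (17.4%) and 5.74%. The YY1 motif (AAGATGGCG) was in 8 (11.6%) and 2.06%. At Mrps24, Mrps18a, Mrpl37, Mrps27, Mrpl42 and Mrpl35 its match lay 11 to 36 bases after the RefSeq start, and at Mrpl36 and Mrps11 before it. Its share therefore depends on the bases after the start that the window takes in. NRF1 and the ETS factor GABP are known as activators of nuclear genes for mitochondrial proteins. The SP motif (GGGCGG) was in 33 members (47.8%) and 49.1% of all promoters. The CRE (TGACGTCA) was in 2 members (2.90%), Mrpl16 and Mrpl49, near the 2.46% of all promoters, and the BANP motif (TCTCGCGA) in 1 (1.45%), Mrpl57, near the 1.49% of all. No motif was found in 12 members, Mrps23 with its strong peak among them. Because the NRF1 motif nearly mirrors itself, its matches on the opposite strands overlapped at Mrpl9, Mrpl32 and Mrpl39.

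The NRF1, ETS and YY1 motifs were at members with and without a peak. Of 56 members with a peak, 7 held NRF1, 10 held ETS and 6 held YY1, and of 13 without a peak, 1, 2 and 2 did. Over all genes, NRF1 was in 6.12% of promoters with a peak and in 171 of 8712 without, ETS in 10.0% with and 2.33% without, and YY1 in 3.80% and 0.666%. SP was in 28 of the 56 members with a peak, against 68.7% of all promoters with one, and in 5 of the 13 without (38.5%), against 33.4%. The CCAAT motif of NF-Y, a match of 5 bases, was counted in the same way. It was in 27 members (39.1%), near the 38.3% of all promoters, but in 10 of the 13 members without a peak (76.9%) and in 17 of the 56 with one (30.4%). Over all genes it was in 38.1% of promoters without and 38.6% of promoters with a peak. The difference among the members rests on 13 promoters without a peak and was not tested. Mrps12 held 4 CCAAT matches, at positions −156, −108, −68 and −19 counted from the RefSeq start at 0, and 1 SP match. Mrps17 held CCAAT on both strands. At Mrps18b an NRF1 match lay at position −223 and another at 28, outside both of its promoter peaks. At Mrps11 the YY1 match fell inside the stronger peak shared with Mrpl46 and the SP match beyond its end. A match shows only that these letters are present in the window.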

How the data were processed

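MOF ChIP-seq peaks were analysed from 2 deposited lists, 1 for each genotype. According to the methods, the authors mapped reads to GRCm38 with snakePipes and called peaks with MACS2 against input at a q-value threshold of 0.1. The submitters' processing notes name MACS2 version 2.1.1.20160309.3 and bedtools. In the deposited lists, fold enrichment is a ratio of fragments to local background at the summit, and the −log10 p-value and −log10 q-value come from the same caller. The score column was not used, and the summit position, another deposited value of the authors' caller, served as a coordinate. In the design text there are 3 Mof+/- animals beside 2 controls, but the labels and the reporting summary give 2 per genotype. The antibody in the labels differs from that in the summary. H3 libraries were not analysed here.

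Genes, starts and coordinates (counted from 1) were those of GENCODE M21 on GRCm38. The primary start was the 5′ end of the coding transcript with the best APPRIS tag. A promoter peak lay within 1000 bp of any start, and each gene took its peak of smallest p-value. Fragments and background were solved from fold enrichment and the Poisson p-value to within 0.001. Linking and solving were tested on simulated data. Python 3.11.15, pandas 2.3.3 and scipy 1.17.1 were used. Depth was read from background and summit fragments, as the lists give no library totals. Each genotype had 1 list, so shares and medians are described beside those of all genes, with Wilson intervals and no test. Bacterial counterparts, pathway lists (3 listed symbols were not found), markers and motifs were assigned here, and the members and lists were chosen with earlier results of these data known. Named with values were the 12 members of smallest p-value, the 5 widest and 5 narrowest, those without a peak, the 3 on each side of the window limit, and pairs of members. Others were named after their values were seen. Alternatives covered the window, q-value, starts, summits, merging, shared peaks and list size.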

Additional observations from a re-analysis of the deposited data

How the results depend on the processing

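Of 40 alternatives over the counts of members with a peak or a partner and the medians of fold, width and offset, 36 stayed within 1.5 times the reported count or within the 95% interval of the reported median. Of the 63 members with a Mof+/+ promoter peak, 37 (47.4%, against 32.7% of all genes) were left at a q-value of at most 0.001. There were 25 (32.1%, against 25.4%) whose peak of smallest p-value had no other gene's start within 1 kb. A weaker peak of the same gene was not put in its place. When the Mof+/+ list was limited to its strongest 731 peaks, 2 members were left. In the Mof+/- list a window of 3 kb gave 1 member in place of 0. The alternative with shared peaks was chosen after seeing the data, as were 7 others. With the peak lists alone no paired analysis was possible, because the single list of a genotype carries no replicate numbers. For the same reason no replicate could be left out. The signal files that the reporting summary names beside the lists were not used. The lists give no library totals, and their lowest backgrounds, 3.52 fragments for Mof+/+ and 2.26 for Mof+/-, differed.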
